A study of Mus musculus with 9 samples.

Results

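The genes described here encode collagens, laminins and other structural proteins of the extracellular matrix. They were chosen by symbol, as every gene named Col or Lam in the pattern of a chain gene, together with Fn1, Tnc, Vcan, Bgn, Dcn, Lum, Sparc, Hspg2, Nid1, Nid2, Thbs1, Thbs2, Postn, Fbn1 and Eln. The rule found 70 genes among the 55335 in each count file, and 36 of the 70 had enough counts to be tested. By class, 11 were fibrillar collagens, 22 were basement membrane genes, 25 were other collagens and 12 were glycoproteins and proteoglycans.

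RNA was sequenced from D2A1-d, a cultured mouse breast carcinoma line, in 9 samples. In 3 samples each the cells carried shMed1 #4, shMed1 #2 or a non-targeting control hairpin (NTC). All groups had been transduced, and the NTC cells were labelled wild type. Each shMed1 group rests on 1 hairpin against Med1, the gene of a Mediator subunit through which nuclear receptors and other activators reach RNA polymerase II. The labels call the samples biological replicates but do not say how they were raised, and the p-values cover the spread between these samples alone. The series title concerns metastatic dormancy in breast cancer.

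Library totals were 8123918 to 8879982 counts, and 3 counts equal 0.345 to 0.364 CPM (counts scaled by library size and TMM factor). The hairpins' target Med1 had 25.02, 26.6 and 25.5 CPM in shMed1 #4 cells, 22.1, 25.2 and 24.7 CPM in shMed1 #2 cells, and 85.6, 87.5 and 79.8 CPM in NTC cells, and so was lower in every hairpin sample. Of the epithelial markers listed for a check of the label, Epcam and Krt5 were at 0 in every library and Cdh1 had at most 2 counts, while Krt18 averaged 43.7 CPM in shMed1 #4 cells, 18.8 CPM in shMed1 #2 cells and 50.7 CPM in NTC cells. Leukocyte markers Ptprc, Cd3e, Itgam and Adgre1 had at most 2 counts in any library, while the macrophage markers Csf1r and Cd68 had 90 to 135 and 16 to 27 counts per library, and the summed endothelial markers stayed between 0.461 and 1.32 CPM. In such bulk samples, fewer cells of a type and less RNA per cell cannot be told apart.

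As background, collagens are triple-helical proteins built from alpha chains. Fibrillar collagens I, III, V and XI form the banded fibres of connective tissue, while collagen IV forms the sheet of the basement membrane. Laminins are cross-shaped trimers of an alpha, a beta and a gamma chain, which bind integrins on the cell and are tied to collagen IV by nidogens and perlecan. Fibronectin, tenascin C, thrombospondins, SPARC and versican are secreted glycoproteins and proteoglycans that tune how cells attach to this scaffold. In breast tumours, loss of the basement membrane and deposition of stromal collagen and fibronectin go with invasion.

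D2A1-d cells made the RNA of only some of these genes at a high level. To compare genes, CPM was divided by the length of the merged annotated exons in kb. The highest levels in any group were those of Sparc, at 261 ± 11.5 CPM per kb in shMed1 #4 cells, 266 ± 4.76 in shMed1 #2 cells and 172 ± 3.92 in NTC cells (SD, n = 3 each). Fn1 stood at 205 ± 7.89 CPM per kb in shMed1 #4 cells, 165 ± 3.83 in shMed1 #2 cells and 189.6 ± 7.07 in NTC cells (SD, n = 3 each). Thbs1 stood at 161 ± 3.47 CPM per kb in shMed1 #4 cells, 172 ± 2.56 in shMed1 #2 cells and 206 ± 6.26 in NTC cells (SD, n = 3 each). These 3 secreted glycoproteins were the 3 most abundant genes per kb in each group, in the order Sparc, Fn1, Thbs1 with shMed1 #4, Sparc, Thbs1, Fn1 with shMed1 #2 and Thbs1, Fn1, Sparc in NTC. In each group the samples of these genes did not overlap, though Thbs1 and Fn1 lay close together in shMed1 #2 cells and in NTC cells.

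Col5a1 stood far above the other fibrillar collagen genes, at 122 ± 5.54 CPM per kb in shMed1 #4 cells, 110.1 ± 1.98 in shMed1 #2 cells and 147 ± 10.5 in NTC cells (SD, n = 3 each). Its partner chain gene Col5a2 had 2, 3 and 1 counts in shMed1 #4 cells, 1, 5 and 2 in shMed1 #2 cells and 5, 4 and 1 in NTC cells, and Col3a1, the neighbouring gene of Col5a2 on chromosome 1, had at most 1 count in any library. Between 95.8% and 96.9% of the summed fibrillar collagen CPM in each sample was Col5a1. Among basement membrane genes the highest in NTC was Lamb1, at 57.4 ± 2.49 CPM per kb in shMed1 #4 cells, 68.9 ± 1.31 in shMed1 #2 cells and 48.0 ± 2.18 in NTC cells (SD, n = 3 each). Col18a1, whose NTC samples overlapped those of Lamb1, came next, and Lama5, Col4a1, Col4a2, Hspg2 and Lamc1 followed in NTC, from 47.6 for Col18a1 down to 21.7 CPM per kb for Lamc1. Among other collagens Col8a1 led, at 39.1 ± 0.919 CPM per kb in shMed1 #4 cells, 50.5 ± 0.980 in shMed1 #2 cells and 39.1 ± 0.988 in NTC cells (SD, n = 3 each).

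The 34 members that were not tested had at most 13 counts in any library, and 6 of them (Col11a1, Lum, Col13a1, Col19a1, Col28a1 and Col9a1) were at 0 in all 9. They include both nidogen genes, which had at most 4 counts, and the fibroblast matrix genes Dcn, Lum and Postn, of which Postn had 0, 1 and 0 counts in shMed1 #4 cells, 0, 0 and 0 in shMed1 #2 cells and 4, 8 and 2 in NTC cells. Several members sit beside a close relative in the genome and yet differ in level. Col6a5 had 870, 912 and 893 counts in shMed1 #4 cells, 830, 843 and 781 in shMed1 #2 cells and 1180, 1113 and 1213 in NTC cells, against at most 5 counts in any library for Col6a4 and at most 9 for Col6a6 on either side of it on chromosome 9. Col4a5 had 648 to 1126 counts per library, against at most 1 count for Col4a6, which starts 1308 bases away on the X chromosome.

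**Figure D1:**
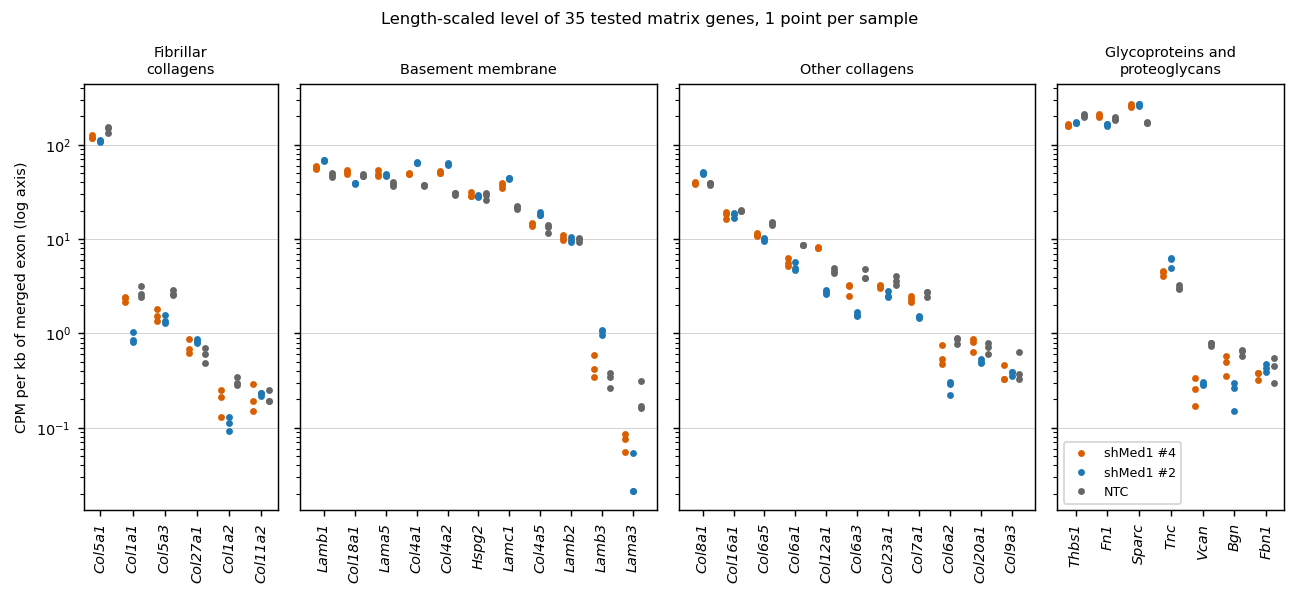
Scaled CPM per kb of merged exon (log axis) of 35 tested matrix genes in each of the 9 samples, by class, with shMed1 #4, shMed1 #2 and NTC side by side. Col5a1 stands far above the other fibrillar collagen genes, and Sparc, Fn1 and Thbs1 stand above all others.

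A gene was called where its adjusted p lay under 0.05. All adjusted p-values are Benjamini-Hochberg values over the 13611 tested genes, from the quasi-likelihood test of edgeR. With shMed1 #4, 10 of the 36 tested members were higher and 11 lower than in NTC, a median log2 fold change of -0.079. Among all tested genes 14.0% were called higher and 14.1% lower with shMed1 #4 (28.2% in all), with a median of 0.00086. With shMed1 #2, 11 members were higher and 18 lower, a median of -0.21. Among all tested genes 21.8% were called higher and 21.9% lower with shMed1 #2 (43.7% in all), with a median of -0.0035. The shares of members called, 58.3% with shMed1 #4 and 80.6% with shMed1 #2, lie above those of all genes, and no test of the list was made. Both comparisons use the same NTC samples. Both hairpins agreed in direction for 17 members, of which 7 were called higher (Col4a1, Col4a2, Lama5, Lamb1, Lamc1, Sparc and Tnc) and 10 were called lower (Col5a1, Col5a3, Lama3, Col6a1, Col6a2, Col6a3, Col6a5, Col16a1, Thbs1 and Vcan). Of all tested genes, 10.4% were higher with both and 10.1% lower with both. Another 3 members (Col12a1, Col18a1 and Fn1) were called in opposite directions, against 0.867% of all tested genes. The shMed1 #4 calls of Col18a1, Fn1 and Col6a2 and both calls of Col16a1 were lost in some alternatives, given below.

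The classes differed in their balance. Of 12 tested basement membrane genes, 6 were higher and 2 lower with shMed1 #4 (median 0.20), and 7 higher and 2 lower with shMed1 #2 (median 0.40). Of 6 tested fibrillar collagens, 0 were higher and 2 lower with shMed1 #4 (median -0.26), and 1 higher and 4 lower with shMed1 #2 (median -0.67). Of 11 tested other collagens, 1 was higher and 5 lower with shMed1 #4 (median -0.21), and 1 higher and 8 lower with shMed1 #2 (median -0.56). Of 7 tested glycoproteins and proteoglycans, 3 were higher and 2 lower with shMed1 #4 (median -0.26), and 2 higher and 4 lower with shMed1 #2 (median -0.20). Shares called with shMed1 #4 were 66.7% of basement membrane genes, 33.3% of fibrillar collagens, 54.5% of other collagens and 71.4% of glycoproteins and proteoglycans. Among all tested genes 28.2% were called, so the fibrillar share with shMed1 #4 lay near that of all genes. With shMed1 #2 the shares were 75%, 83.3%, 81.8% and 85.7% in the same order, against 43.7%. Single libraries moved 3 of the class counts by over 1.5 times. With shMed1 #4, 3 other collagens were lower without NTC replicate 1, without NTC replicate 3 or without shMed1 #4 replicate 1, and 1 basement membrane gene was lower without NTC replicate 2 or without shMed1 #4 replicate 2. With shMed1 #2, 0 fibrillar collagens were higher without NTC replicate 1. The summed basement membrane level, by replicate, was 2988, 3115 and 3251 CPM in shMed1 #4 cells, 3381, 3386 and 3400.5 CPM in shMed1 #2 cells and 2519, 2539 and 2410.0 CPM in NTC cells. That sum was higher in each hairpin sample than in each NTC sample. The summed fibrillar collagen level was 1045, 1044 and 1130.1 CPM in shMed1 #4 cells, 976, 945 and 974 CPM in shMed1 #2 cells and 1341, 1360.3 and 1198 CPM in NTC cells, lower in each hairpin sample and almost wholly set by Col5a1. The difference between classes was not tested.

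Markers of other cell types were summed in the same samples. Of 8 fibroblast markers 3 were tested, Fap, Dpt and Thy1 were at 0 in every library and Lrrc15 had at most 2 counts. The fibroblast sum was 95.8 to 112 CPM in shMed1 #4 cells, 75.0 to 83.2 CPM in shMed1 #2 cells and 151 to 169 CPM in NTC cells, and like the fibrillar collagen sum it was lower in every hairpin sample. It came mostly from Pdgfra, which averaged 53.3 CPM in shMed1 #4 cells, 47.9 CPM in shMed1 #2 cells and 78.1 CPM in NTC cells, and from Pdgfrb, which averaged 48.5 CPM in shMed1 #4 cells, 30.9 CPM in shMed1 #2 cells and 79.1 CPM in NTC cells. The other tested fibroblast marker averaged 1.60 CPM in shMed1 #4 cells, 1.27 CPM in shMed1 #2 cells and 1.11 CPM in NTC cells. That marker was not lower with either hairpin and was called with neither. The summed epithelial markers, nearly all Krt18 and Krt8, were 41.6 to 52.1 CPM in shMed1 #4 cells, 19.9 to 22.8 CPM in shMed1 #2 cells and 56.9 to 58.6 CPM in NTC cells. Summed smooth muscle markers, nearly all Acta2 and Actg2, were 528 to 613 CPM in shMed1 #4 cells, 409.6 to 429.9 CPM in shMed1 #2 cells and 388 to 413 CPM in NTC cells. Acta2 averaged 321 CPM in shMed1 #4 cells, 213 CPM in shMed1 #2 cells and 233 CPM in NTC cells. Actg2 averaged 253 CPM in shMed1 #4 cells, 206 CPM in shMed1 #2 cells and 163 CPM in NTC cells, so the 2 genes differed in direction with shMed1 #2. The leukocyte sum was 13.7 to 15.4 CPM in shMed1 #4 cells, 13.5 to 15.4 CPM in shMed1 #2 cells and 16.0 to 19.0 CPM in NTC cells. It was nearly all Csf1r, which averaged 12.2 CPM in shMed1 #4 cells, 12.3 CPM in shMed1 #2 cells and 14.5 CPM in NTC cells, and Cd68, with Ptprc at 2 counts or fewer. The part of these markers in the collagen and laminin values was not tested.

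**Figure D2:**
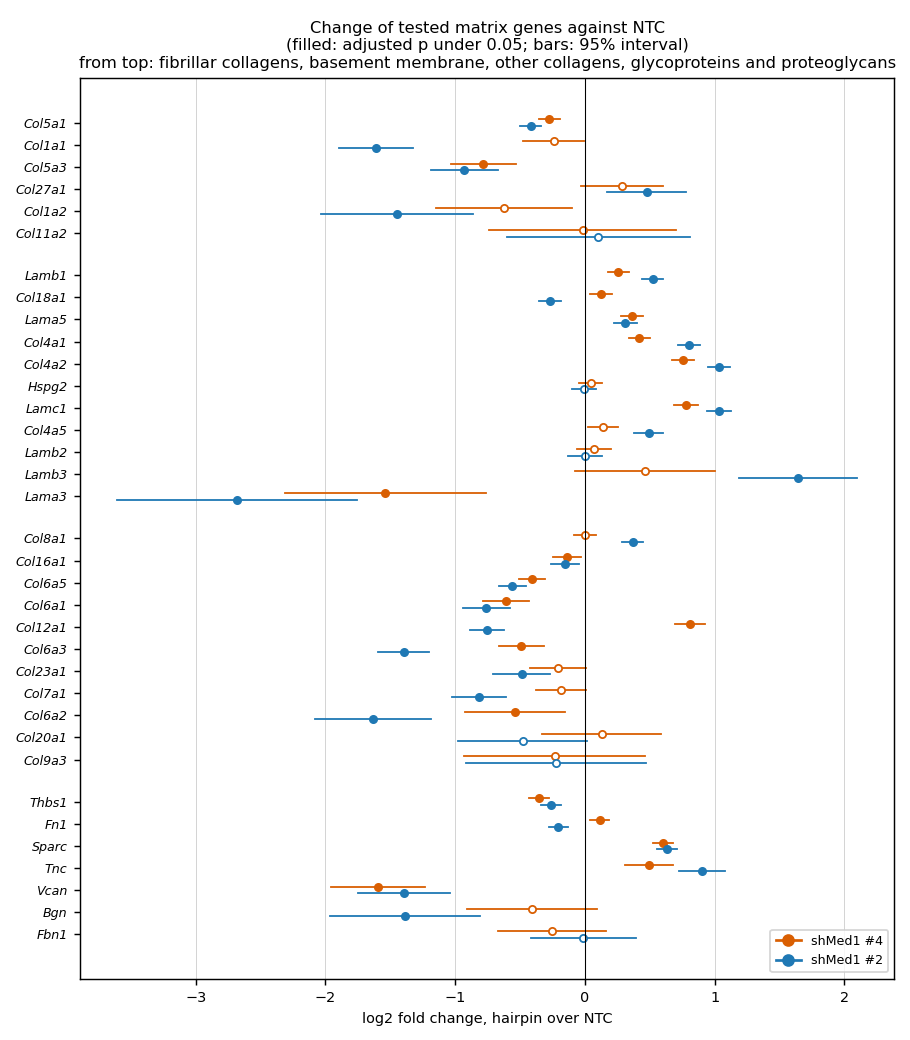
Log2 fold change of 35 tested matrix genes with shMed1 #4 and shMed1 #2 over NTC, from the top fibrillar collagens, basement membrane, other collagens, and glycoproteins and proteoglycans. Bars are 95% intervals and filled points are called, and Col4a1, Col4a2, Lamb1 and Lamc1 lie right of 0 while Col5a3, Col6a3 and Vcan lie left of 0 with both hairpins.

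Promoter sequence was looked at for members that moved the same way with both hairpins. Of the 36 tested members, 28 matched an entry by symbol in a RefSeq promoter table (GRCm38.p6). Shown are the 250 bases before the annotated start of Lama5 and Tnc, which rose with both hairpins, and of Col5a1, Col6a3 and Vcan, which fell with both, as examples from the windows that hold no annotated exon. Col6a3 is included as one without the motif. Capitals mark the GC box GGGCGG on either strand.
Lama5, chr2:180225860-180226109, minus strand: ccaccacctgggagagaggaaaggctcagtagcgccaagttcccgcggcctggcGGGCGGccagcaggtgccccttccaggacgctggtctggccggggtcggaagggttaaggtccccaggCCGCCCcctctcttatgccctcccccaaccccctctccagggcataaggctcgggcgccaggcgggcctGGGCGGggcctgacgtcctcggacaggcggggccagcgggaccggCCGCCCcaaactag
Tnc, chr4:64047016-64047265, minus strand: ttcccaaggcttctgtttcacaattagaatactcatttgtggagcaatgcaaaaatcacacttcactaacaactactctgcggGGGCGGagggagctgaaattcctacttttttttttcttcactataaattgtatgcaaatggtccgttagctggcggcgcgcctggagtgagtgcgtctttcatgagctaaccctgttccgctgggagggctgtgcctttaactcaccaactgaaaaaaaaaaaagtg
Col5a1, chr2:27886175-27886424, plus strand: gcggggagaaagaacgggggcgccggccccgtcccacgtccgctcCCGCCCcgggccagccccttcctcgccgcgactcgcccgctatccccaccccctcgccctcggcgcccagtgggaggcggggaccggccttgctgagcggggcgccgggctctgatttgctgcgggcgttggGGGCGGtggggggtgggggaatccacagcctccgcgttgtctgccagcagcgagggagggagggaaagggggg
Col6a3, chr1:90843972-90844221, minus strand: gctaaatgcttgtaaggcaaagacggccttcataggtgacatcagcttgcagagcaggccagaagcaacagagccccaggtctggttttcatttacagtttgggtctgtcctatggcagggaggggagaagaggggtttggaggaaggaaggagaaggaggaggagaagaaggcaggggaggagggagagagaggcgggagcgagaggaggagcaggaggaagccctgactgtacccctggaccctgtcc
Vcan, chr13:89742513-89742762, minus strand: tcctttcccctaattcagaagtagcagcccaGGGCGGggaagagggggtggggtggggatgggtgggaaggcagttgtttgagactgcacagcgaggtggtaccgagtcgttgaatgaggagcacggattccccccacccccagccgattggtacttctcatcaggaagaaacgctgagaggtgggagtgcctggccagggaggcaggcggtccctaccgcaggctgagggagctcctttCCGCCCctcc

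The GC box stood in the window of 4 of the 6 matched members that rose with both hairpins and of 6 of the 8 that fell with both. It stood in 35.4% of the windows of all 27025 genes in the table and in 21 of the 28 matched members. Col6a3 had none. The CCAAT box (CCAAT, either strand) stood in 3 of the 6 and in 3 of the 8, against 37.5% of all genes. The TATA box (TATAAA, either strand) stood in 1 of the 6, Tnc, and in 0 of the 8, against 14.3% of all genes. The motifs were counted separately, can share letters at their ends, and describe the sequence only. The 28 matched members had passed the filter on low counts, whereas the 27025 genes were taken whatever their expression. Shares among tested genes alone were not counted, so the percentages of all genes are not a like-for-like background for the members.

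Both main collagen IV genes, Col4a1 and Col4a2, whose chains join in the major form of basement membrane collagen, rose with both hairpins. Col4a1 (ENSMUSG00000031502.11, chromosome 8, 11198423 to 11312826, minus strand, GRCm38) had 369, 368 and 380.1 CPM in shMed1 #4 cells, 484, 480.2 and 493 CPM in shMed1 #2 cells, and 282, 271 and 282 CPM in NTC cells. The groups did not overlap, and shMed1 #2 cells stood highest. The log2 fold change over NTC was 0.42 in shMed1 #4 cells (SE 0.0417, adjusted p = 6.61e-14) and 0.80 in shMed1 #2 cells (SE 0.0412, adjusted p = 1.02e-29). Col4a2 (ENSMUSG00000031503.13, chromosome 8, 11312805 to 11449287, plus strand) had 336, 335 and 348 CPM in shMed1 #4 cells, 414, 402 and 423 CPM in shMed1 #2 cells, and 205, 195 and 204 CPM in NTC cells. Again the groups did not overlap and shMed1 #2 cells stood highest. The log2 fold change of Col4a2 was 0.75 in shMed1 #4 cells (SE 0.0433, adjusted p = 3.04e-26) and 1.04 in shMed1 #2 cells (SE 0.0429, adjusted p = 8.31e-36), or 1.69-fold in shMed1 #4 cells and 2.05-fold in shMed1 #2 cells. The genes lie head to head and their annotated 5′ exons share 22 bases on opposite strands. Per kb of exon, Col4a1 stood at 0.975, 0.974 and 0.968 times Col4a2 with shMed1 #4, at 1.03, 1.06 and 1.03 times with shMed1 #2 and at 1.22, 1.23 and 1.23 times in NTC. The ratio was lower in every hairpin sample than in every NTC sample. Col4a5, which encodes a minor collagen IV chain, averaged 96.9 CPM in shMed1 #4 cells, 124 CPM in shMed1 #2 cells and 88.1 CPM in NTC cells, with a log2 fold change of 0.14 in shMed1 #4 cells (SE 0.0579, adjusted p = 0.0655) and 0.49 in shMed1 #2 cells (SE 0.0561, adjusted p = 6.3e-12), and so rose with shMed1 #2. Without NTC replicate 1, Col4a5 was also called with shMed1 #4 (adjusted p = 0.0158).

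Lama5, Lamb1 and Lamc1, whose chains form one laminin trimer of basement membranes, all rose with both hairpins. Lamc1, the gamma 1 chain gene (chromosome 1, 153218922 to 153332786, minus strand), had 285, 309 and 327 CPM in shMed1 #4 cells, 373, 362 and 365 CPM in shMed1 #2 cells, and 182, 185 and 171 CPM in NTC cells. Levels were lowest in NTC cells and highest in shMed1 #2 cells, without overlap, and the log2 fold change was 0.78 in shMed1 #4 cells (SE 0.0458, adjusted p = 1.61e-25) and 1.03 in shMed1 #2 cells (SE 0.0454, adjusted p = 4.2e-34). Lamb1, the beta 1 chain gene, had 546, 595 and 567 CPM in shMed1 #4 cells, 689, 693 and 669 CPM in shMed1 #2 cells, and 481, 495 and 453 CPM in NTC cells. The order of the groups was the same and they did not overlap, with a log2 fold change of 0.26 in shMed1 #4 cells (SE 0.0410, adjusted p = 3.48e-07) and 0.52 in shMed1 #2 cells (SE 0.0408, adjusted p = 2.62e-19). Lama5, the alpha 5 chain gene, had 527, 561 and 613 CPM in shMed1 #4 cells, 537, 547 and 560.2 CPM in shMed1 #2 cells, and 443, 463 and 418 CPM in NTC cells. Every hairpin sample of Lama5, whose promoter window is printed above, stood above every NTC sample, and the hairpin groups overlapped. Its fold change on the log2 scale was 0.36 in shMed1 #4 cells (SE 0.0433, adjusted p = 1.67e-10) and 0.31 in shMed1 #2 cells (SE 0.0433, adjusted p = 5.91e-09). Per kb of exon, Lamc1 stood at 0.627, 0.623 and 0.691 times Lamb1 with shMed1 #4, at 0.649, 0.627 and 0.654 times with shMed1 #2 and at 0.454, 0.448 and 0.453 times in NTC, so that Lamc1 was nearer to Lamb1 in every hairpin sample. Lamb2, the beta 2 chain gene, averaged 63.3 CPM in shMed1 #4 cells, 60.4 CPM in shMed1 #2 cells and 60.3 CPM in NTC cells, with log2 fold changes of 0.070 (a 95% interval from -0.060 to 0.20) with shMed1 #4 and 0.0019 (a 95% interval from -0.13 to 0.13) with shMed1 #2.

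Lama3 and Lamb3, which encode chains of the laminin that anchors epithelial cells, were scarce and were not called in the same direction. Lama3, the alpha 3 chain gene, had 7, 5 and 8 counts in shMed1 #4 cells, 2, 5 and 2 in shMed1 #2 cells and 15, 28 and 15 in NTC cells, or 0.815, 0.602 and 0.927 CPM in shMed1 #4 cells, 0.230, 0.581 and 0.230 CPM in shMed1 #2 cells, and 1.82, 3.37 and 1.74 CPM in NTC cells. Lama3 fell with both hairpins, and every hairpin sample lay below every NTC sample. Each hairpin group had a library at 5 counts, and in CPM the hairpin groups lay close together without overlap. The log2 fold change was -1.54 in shMed1 #4 cells (SE 0.389, adjusted p = 0.00127) and -2.68 in shMed1 #2 cells (SE 0.464, adjusted p = 1.08e-06). These values rest on few counts, and the stricter filter on low counts removed the gene. Lamb3, the beta 3 chain gene, had 2.79, 2.29 and 3.94 CPM in shMed1 #4 cells, 6.32, 7.20 and 7.03 CPM in shMed1 #2 cells, and 2.55, 2.29 and 1.74 CPM in NTC cells, where the shMed1 #2 samples lay above all others and the shMed1 #4 samples overlapped NTC. Lamb3 rose with shMed1 #2, with a log2 fold change of 0.46 in shMed1 #4 cells (SE 0.272, adjusted p = 0.213) and 1.64 in shMed1 #2 cells (SE 0.230, adjusted p = 4.69e-09).

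Among the linkers of the basement membrane, Hspg2, which encodes perlecan, averaged 426 CPM in shMed1 #4 cells, 411 CPM in shMed1 #2 cells and 413 CPM in NTC cells. Its log2 fold change had a 95% interval from -0.046 to 0.13 with shMed1 #4 and a 95% interval from -0.10 to 0.082 with shMed1 #2, and neither was called. Col18a1, whose C-terminal fragment is endostatin, had 345, 366 and 382 CPM in shMed1 #4 cells, 273, 279 and 279 CPM in shMed1 #2 cells, and 328, 332 and 343 CPM in NTC cells. The groups did not overlap, with shMed1 #4 cells highest and shMed1 #2 cells lowest. Col18a1 rose with shMed1 #4 and fell with shMed1 #2, at log2 fold changes of 0.12 in shMed1 #4 cells (SE 0.0421, adjusted p = 0.0193) and -0.27 in shMed1 #2 cells (SE 0.0428, adjusted p = 1.14e-07). The call of Col18a1 with shMed1 #4 was lost with library size alone (adjusted p = 0.0686), without NTC replicate 1 (adjusted p = 0.0839), without NTC replicate 2 (adjusted p = 0.066) and without shMed1 #4 replicate 3 (adjusted p = 0.125), whereas that with shMed1 #2 held under every alternative run. Col15a1, Lama1, Lama2, Lama4, Lamc3, Col4a3 and Col4a4 were not tested, with at most 13 counts in any library.

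**Figure D3:**
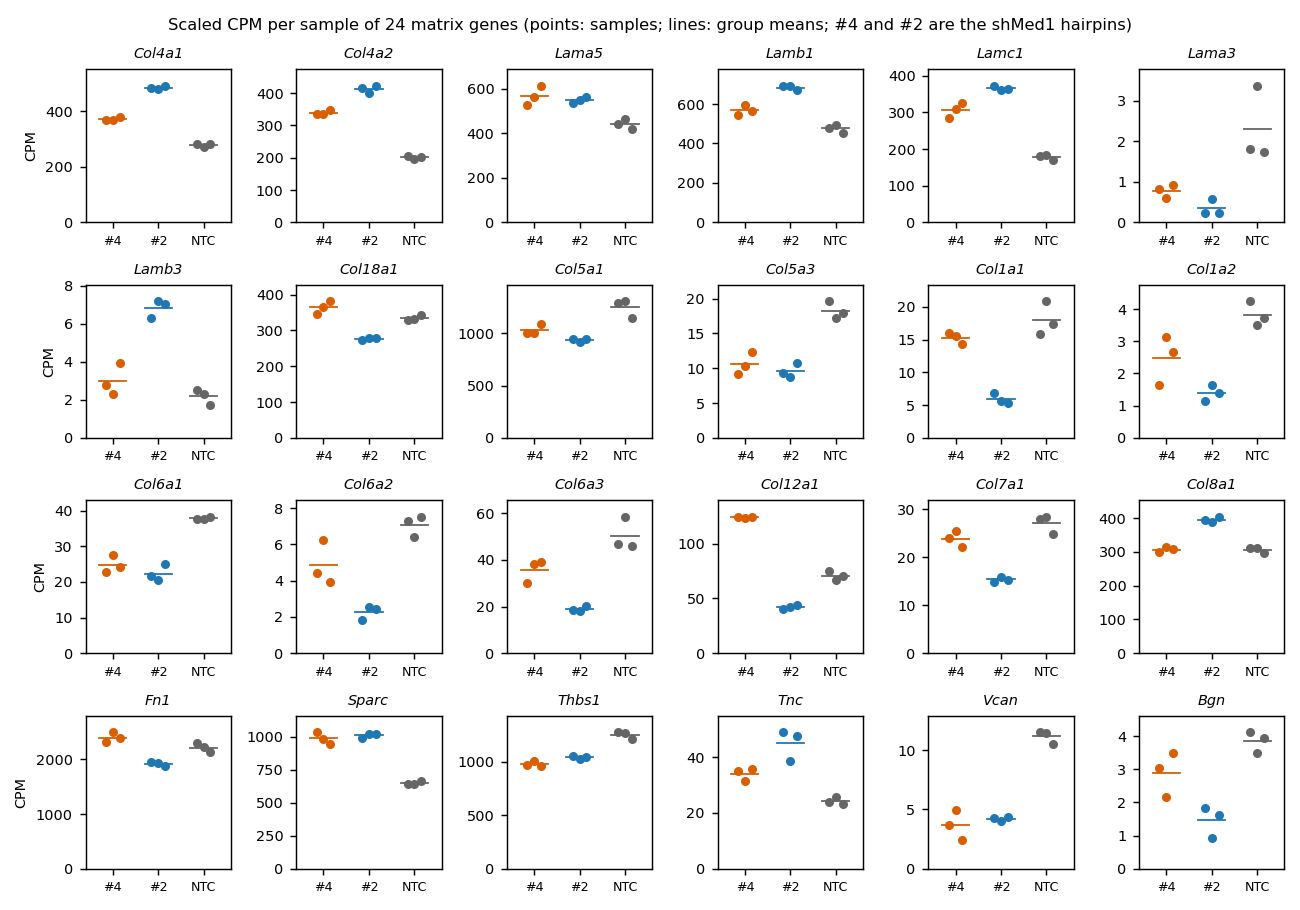
Scaled CPM of 24 matrix genes in each sample (points) with the group mean (line), for shMed1 #4, shMed1 #2 and NTC from left to right, each axis starting at 0. Col4a2 and Lamc1 lie highest with shMed1 #2 and lowest in NTC, and Col12a1 lies highest with shMed1 #4 and lowest with shMed1 #2.

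The collagen V genes Col5a1 and Col5a3 fell with both hairpins, and the collagen I genes Col1a1 and Col1a2 with shMed1 #2. Col5a1, the alpha 1 chain gene of collagen V, which sits inside collagen I fibres (chromosome 2, 27886425 to 28039514, plus strand), had 1007, 1004 and 1087 CPM in shMed1 #4 cells, 945, 915 and 944 CPM in shMed1 #2 cells, and 1293, 1309 and 1147 CPM in NTC cells. No hairpin sample reached the lowest NTC sample, and the log2 fold change was -0.28 in shMed1 #4 cells (SE 0.0408, adjusted p = 7.08e-08) and -0.42 in shMed1 #2 cells (SE 0.0409, adjusted p = 2.25e-14). Col5a3, the gene of the alpha 3 chain of collagen V, had 9.19, 10.3 and 12.3 CPM in shMed1 #4 cells, 9.31, 8.71 and 10.7 CPM in shMed1 #2 cells, and 19.6, 17.2 and 17.9 CPM in NTC cells. The hairpin groups overlapped and lay below NTC, and the log2 fold change was -0.78 in shMed1 #4 cells (SE 0.127, adjusted p = 6e-07) and -0.93 in shMed1 #2 cells (SE 0.130, adjusted p = 4e-09). Col1a1, the main chain gene of collagen I, had 15.9, 15.5 and 14.3 CPM in shMed1 #4 cells, 6.78, 5.57 and 5.30 CPM in shMed1 #2 cells, and 15.9, 20.8 and 17.4 CPM in NTC cells. With shMed1 #2 it stood below every other sample, while shMed1 #4 and NTC overlapped. The log2 fold change of Col1a1 was -0.24 in shMed1 #4 cells (SE 0.120, adjusted p = 0.127) and -1.61 in shMed1 #2 cells (SE 0.143, adjusted p = 1.44e-16). Col1a2, the alpha 2 chain gene of collagen I, had 14, 26 and 23 counts in shMed1 #4 cells, 10, 14 and 12 in shMed1 #2 cells and 35, 29 and 32 in NTC cells, or 1.63, 3.13 and 2.67 CPM in shMed1 #4 cells, 1.15, 1.63 and 1.38 CPM in shMed1 #2 cells, and 4.24, 3.49 and 3.71 CPM in NTC cells. The NTC samples stood highest, and the lowest shMed1 #4 sample was nearly level with the highest shMed1 #2 sample. At log2 fold changes of -0.62 in shMed1 #4 cells (SE 0.262, adjusted p = 0.0654) and -1.45 in shMed1 #2 cells (SE 0.295, adjusted p = 2.65e-05), Col1a2 was called with shMed1 #2. Without shMed1 #4 replicate 2, Col1a2 was also called with shMed1 #4 (adjusted p = 0.0364). Col27a1, a fibrillar collagen gene of cartilage, rose with shMed1 #2, at log2 fold changes of 0.28 in shMed1 #4 cells (SE 0.158, adjusted p = 0.185) and 0.47 in shMed1 #2 cells (SE 0.154, adjusted p = 0.00851). That call was lost without NTC replicate 1 (adjusted p = 0.0963). Col11a2, with 9 to 17 counts per library, had log2 fold changes of -0.019 with shMed1 #4 and 0.10 with shMed1 #2, and neither was called.

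Collagen VI, which forms beaded filaments next to cells, was lower with both hairpins in each of its 4 tested chain genes. Col6a1 had 22.8, 27.6 and 24.2 CPM in shMed1 #4 cells, 21.6, 20.4 and 25.01 CPM in shMed1 #2 cells, and 37.6, 37.7 and 38.3 CPM in NTC cells. All hairpin samples lay below NTC, at log2 fold changes of -0.61 in shMed1 #4 cells (SE 0.0893, adjusted p = 4.26e-08) and -0.76 in shMed1 #2 cells (SE 0.0907, adjusted p = 2.58e-11). Col6a2, 85161 bases from Col6a1 on chromosome 10, had 4.42, 6.26 and 3.94 CPM in shMed1 #4 cells, 1.84, 2.55 and 2.42 CPM in shMed1 #2 cells, and 7.27, 6.39 and 7.53 CPM in NTC cells. NTC again stood highest, and shMed1 #2 cells stood lowest. Log2 fold changes of Col6a2 were -0.54 in shMed1 #4 cells (SE 0.193, adjusted p = 0.0271) and -1.63 in shMed1 #2 cells (SE 0.225, adjusted p = 2.93e-09), and the call with shMed1 #4 was lost with DESeq2 (adjusted p = 0.119), without NTC replicate 1 (adjusted p = 0.0769), without NTC replicate 3 (adjusted p = 0.101), without shMed1 #4 replicate 1 (adjusted p = 0.106) and without shMed1 #4 replicate 3 (adjusted p = 0.149). Col6a3 (chromosome 1, 90765923 to 90843971, minus strand), the largest chain, had 30.1, 38.4 and 39.0 CPM in shMed1 #4 cells, 18.6, 18.2 and 20.4 CPM in shMed1 #2 cells, and 46.5, 58.4 and 46.0 CPM in NTC cells. The groups did not overlap and stood in the same order as for Col6a2, at log2 fold changes of -0.49 in shMed1 #4 cells (SE 0.0871, adjusted p = 1.04e-05) and -1.40 in shMed1 #2 cells (SE 0.0969, adjusted p = 3.21e-18). Col6a5 averaged 105 CPM in shMed1 #4 cells, 94.4 CPM in shMed1 #2 cells and 139 CPM in NTC cells, with log2 fold changes of -0.41 in shMed1 #4 cells (SE 0.0515, adjusted p = 4.19e-10) and -0.56 in shMed1 #2 cells (SE 0.0521, adjusted p = 1.13e-15). Per kb of exon, Col6a1 stood at 2.07, 1.96 and 1.70 times Col6a3 with shMed1 #4, at 3.17, 3.06 and 3.35 times with shMed1 #2 and at 2.20, 1.76 and 2.28 times in NTC, so that shMed1 #2 stood apart.

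Col12a1, a collagen that binds the surface of collagen I fibres, rose with shMed1 #4 and fell with shMed1 #2. It lies on chromosome 9, 79598991 to 79718831, minus strand, and had 125, 123 and 124 CPM in shMed1 #4 cells, 40.3, 42.0 and 43.6 CPM in shMed1 #2 cells, and 75.3, 66.4 and 70.7 CPM in NTC cells. All shMed1 #4 samples lay above NTC and all shMed1 #2 samples below it. The log2 fold changes were 0.81 in shMed1 #4 cells (SE 0.0565, adjusted p = 2.61e-21) and -0.75 in shMed1 #2 cells (SE 0.0657, adjusted p = 5.48e-17), and both calls held under every alternative run. Col8a1, a short-chain collagen gene of vessel walls, had 299, 313 and 307 CPM in shMed1 #4 cells, 393, 389 and 404 CPM in shMed1 #2 cells, and 311, 311 and 298 CPM in NTC cells. The shMed1 #2 samples stood above all others, and the gene rose with shMed1 #2 (log2 fold change 0.37, SE 0.0415, adjusted p = 3.24e-12). With shMed1 #4 its log2 fold change was -0.00062, with a 95% interval from -0.084 to 0.083. Col7a1, the gene of the anchoring fibrils of skin, had 24.1, 25.4 and 22.0 CPM in shMed1 #4 cells, 14.9, 15.9 and 15.3 CPM in shMed1 #2 cells, and 28.0, 28.4 and 24.9 CPM in NTC cells. Col7a1 fell with shMed1 #2, where all samples lay below the others, and its log2 fold changes were -0.19 in shMed1 #4 cells (SE 0.0962, adjusted p = 0.149) and -0.82 in shMed1 #2 cells (SE 0.104, adjusted p = 2.29e-10). Col23a1, a transmembrane collagen gene, fell with shMed1 #2, with log2 fold changes of -0.21 in shMed1 #4 cells (SE 0.109, adjusted p = 0.153) and -0.49 in shMed1 #2 cells (SE 0.112, adjusted p = 0.000184). Col16a1, a fibril-associated collagen gene, averaged 123 CPM in shMed1 #4 cells, 122 CPM in shMed1 #2 cells and 136 CPM in NTC cells, with log2 fold changes of -0.14 in shMed1 #4 cells (SE 0.0530, adjusted p = 0.0403) and -0.15 in shMed1 #2 cells (SE 0.0530, adjusted p = 0.0142). With shMed1 #4 the call was lost with no filter on low counts (adjusted p = 0.0564), with DESeq2 (adjusted p = 0.128), without NTC replicate 1 (adjusted p = 0.054), without NTC replicate 2 (adjusted p = 0.146), without NTC replicate 3 (adjusted p = 0.0754) and without shMed1 #4 replicate 1 (adjusted p = 0.421). With shMed1 #2 it was lost with DESeq2 (adjusted p = 0.0593), without NTC replicate 2 (adjusted p = 0.0691) and without shMed1 #2 replicate 2 (adjusted p = 0.145). Col20a1 and Col9a3, with 11 to 39 counts per library, were called with neither hairpin.

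Among glycoproteins and proteoglycans, Sparc and Tnc rose and Thbs1 and Vcan fell with both hairpins, and Fn1 was called in opposite directions. Fn1, the fibronectin gene (chromosome 1, 71585520 to 71653200, minus strand), had 2314, 2497 and 2383 CPM in shMed1 #4 cells, 1958, 1939 and 1873 CPM in shMed1 #2 cells, and 2298, 2218 and 2133 CPM in NTC cells. The groups did not overlap, with shMed1 #4 cells highest and shMed1 #2 cells lowest, at log2 fold changes of 0.11 in shMed1 #4 cells (SE 0.0377, adjusted p = 0.0161) and -0.20 in shMed1 #2 cells (SE 0.0378, adjusted p = 4.56e-06). The rise of Fn1 with shMed1 #4 was lost with library size alone (adjusted p = 0.06), without NTC replicate 3 (adjusted p = 0.119) and without shMed1 #4 replicate 2 (adjusted p = 0.138), and the fall with shMed1 #2 held under every alternative run. Thbs1, the thrombospondin 1 gene, had 972, 1004 and 965 CPM in shMed1 #4 cells, 1056, 1026 and 1049 CPM in shMed1 #2 cells, and 1277, 1271 and 1208 CPM in NTC cells. It stood lowest in shMed1 #4 cells and highest in NTC without overlap, with log2 fold changes of -0.35 in shMed1 #4 cells (SE 0.0380, adjusted p = 1.68e-12) and -0.26 in shMed1 #2 cells (SE 0.0379, adjusted p = 1.09e-08). Sparc, which encodes a collagen-binding glycoprotein, had 1034, 981 and 947 CPM in shMed1 #4 cells, 989, 1016 and 1023 CPM in shMed1 #2 cells, and 640.3, 644 and 668 CPM in NTC cells. The hairpin groups overlapped and both lay above NTC, at log2 fold changes of 0.60 in shMed1 #4 cells (SE 0.0393, adjusted p = 5.98e-23) and 0.63 in shMed1 #2 cells (SE 0.0392, adjusted p = 8.51e-25). Tnc, the tenascin C gene, had 35.0, 31.3 and 35.6 CPM in shMed1 #4 cells, 49.0, 38.7 and 47.7 CPM in shMed1 #2 cells, and 23.8, 25.5 and 23.2 CPM in NTC cells. NTC stood lowest and shMed1 #2 highest without overlap, and the log2 fold changes were 0.49 in shMed1 #4 cells (SE 0.0917, adjusted p = 1.03e-05) and 0.90 in shMed1 #2 cells (SE 0.0874, adjusted p = 6.89e-15).

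Vcan, the gene of the large proteoglycan versican, had 3.72, 4.93 and 2.43 CPM in shMed1 #4 cells, 4.25, 4.06 and 4.38 CPM in shMed1 #2 cells, and 11.5, 11.4 and 10.5 CPM in NTC cells. All hairpin samples stood below the lowest NTC sample, and the hairpin groups overlapped. The log2 fold change of Vcan was -1.60 in shMed1 #4 cells (SE 0.183, adjusted p = 1.63e-11) and -1.40 in shMed1 #2 cells (SE 0.177, adjusted p = 2.11e-10). Bgn, the biglycan gene, a small leucine-rich proteoglycan, had 3.03, 2.17 and 3.48 CPM in shMed1 #4 cells, 1.84, 0.929 and 1.61 CPM in shMed1 #2 cells, and 4.12, 3.49 and 3.94 CPM in NTC cells. The groups did not overlap, though the highest shMed1 #4 sample and the lowest NTC sample were nearly level. Bgn fell with shMed1 #2, and its log2 fold changes were -0.41 in shMed1 #4 cells (SE 0.252, adjusted p = 0.236) and -1.39 in shMed1 #2 cells (SE 0.289, adjusted p = 4.15e-05). Fbn1, the gene of the microfibril protein fibrillin 1, averaged 4.38 CPM in shMed1 #4 cells, 5.20 CPM in shMed1 #2 cells and 5.22 CPM in NTC cells, with log2 fold changes of -0.26 in shMed1 #4 cells (a 95% interval from -0.67 to 0.16) and -0.012 in shMed1 #2 cells (a 95% interval from -0.41 to 0.39). Dcn, Eln and Lum had at most 1 count in any library, and Thbs2 at most 5.

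The hairpins were also compared with each other, shMed1 #4 over shMed1 #2. Of the 36 tested members 11 were higher and 9 lower with shMed1 #4 (median 0.050), while 12.9% of all tested genes were called higher and 13.1% lower (26.0% in all). Of the 17 members whose calls agreed between the hairpins, 14 had the larger fold change with shMed1 #2, and Lama5, Thbs1 and Vcan had it with shMed1 #4. The same count over all tested genes was not made. More of all tested genes were called with shMed1 #2 (43.7%) than with shMed1 #4 (28.2%). Whether the count of 14 is particular to these members was not tested. Med1 itself differed by 0.10 between the hairpins on the log2 scale (SE 0.0899, adjusted p = 0.461). Of 12 basement membrane genes 7 were lower with shMed1 #4, with log2 differences such as those of Lamb3 (-1.18, SE 0.214, adjusted p = 7.8e-06), Col4a1 (-0.38, SE 0.0404, adjusted p = 1.11e-12) and Lamc1 (-0.26, SE 0.0434, adjusted p = 1.8e-06). The only one called higher was Col18a1 (0.40, SE 0.0425, adjusted p = 2.14e-12).

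Among fibrillar collagens 3 were higher and 0 lower with shMed1 #4 than with shMed1 #2, and among other collagens 5 were higher and 1 lower. Without shMed1 #4 replicate 3, 1 fibrillar collagen was higher. On the log2 scale, the largest difference of any member was that of Col12a1, 1.56 (SE 0.0610, adjusted p = 8.16e-37). Col1a1 was higher by 1.37 (SE 0.148, adjusted p = 2.22e-12) and Col6a2 by 1.09 (SE 0.242, adjusted p = 0.000232). Col6a3 was higher by 0.91 (SE 0.102, adjusted p = 2.71e-10) and Col7a1 by 0.63 (SE 0.106, adjusted p = 1.48e-06), while Col8a1 was lower, -0.37 (SE 0.0414, adjusted p = 1.16e-11). Some differences were called with little margin. Col1a2 (0.83, SE 0.321, adjusted p = 0.0468) lost its call in 10 of the 18 alternatives, with adjusted p from 0.0501 to 0.222, of which 7 each left out 1 library (NTC replicate 1 or 2, any shMed1 #2 replicate, or shMed1 #4 replicate 2 or 3). Col6a5 (0.15, SE 0.0537, adjusted p = 0.0286) lost it with no filter on low counts (adjusted p = 0.0555), with DESeq2 (adjusted p = 0.0825), without shMed1 #2 replicate 3 (adjusted p = 0.169) and without shMed1 #4 replicate 2 (adjusted p = 0.154). Col5a1 (0.14, SE 0.0410, adjusted p = 0.00515) lost it without shMed1 #4 replicate 3 (adjusted p = 0.0568). Among glycoproteins Fn1 was higher (0.32, SE 0.0378, adjusted p = 8.23e-11), as was Bgn (0.98, SE 0.306, adjusted p = 0.011), whose call was lost without shMed1 #2 replicate 2 (adjusted p = 0.0975) and without shMed1 #4 replicate 3 (adjusted p = 0.0776). Tnc was lower with shMed1 #4, -0.41 (SE 0.0822, adjusted p = 5.31e-05). Lama3, at 2 to 8 counts in these 6 libraries, was not called (1.14, SE 0.588, adjusted p = 0.149). Sparc differed by -0.032, with a 95% interval from -0.11 to 0.045, Vcan by -0.20, with a 95% interval from -0.64 to 0.24, and Lama5 by 0.049, with a 95% interval from -0.036 to 0.13. Thbs1 (-0.090, SE 0.0381, adjusted p = 0.0725) was called without shMed1 #4 replicate 2 (adjusted p = 0.044), Col23a1 (0.28, SE 0.115, adjusted p = 0.0596) with upper quartile scaling (adjusted p = 0.0469), with library size alone (adjusted p = 0.0399) and without shMed1 #2 replicate 2 (adjusted p = 0.0386), and Col20a1 (0.61, SE 0.244, adjusted p = 0.0554) with upper quartile scaling (adjusted p = 0.0498), with library size alone (adjusted p = 0.046) and without shMed1 #4 replicate 2 (adjusted p = 0.0321).

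**Figure D4:**
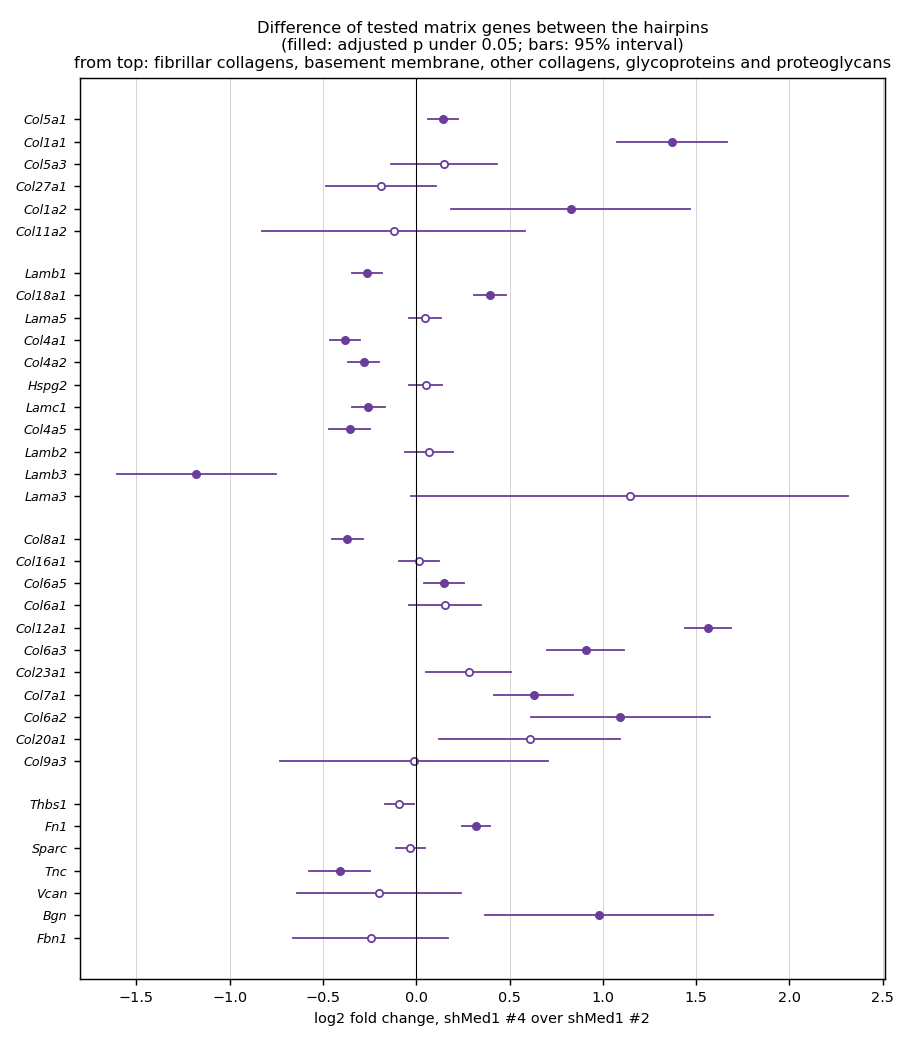
Log2 fold change of 35 tested matrix genes with shMed1 #4 over shMed1 #2, with 95% intervals and filled points where called, from the top fibrillar collagens, basement membrane, other collagens, and glycoproteins and proteoglycans. Col12a1 and Col1a1 lie farthest right among the called genes and Lamb3 farthest left.

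Genes that build, carry and bind this matrix were read from further lists, whose shares called stand against 28.2% of all tested genes with shMed1 #4 and 43.7% with shMed1 #2. Of 17 tested genes of collagen folding and modification, 5 were higher and 4 lower with shMed1 #4, and 5 higher and 8 lower with shMed1 #2, with medians of -0.0032 with shMed1 #4 and -0.038 with shMed1 #2. That is 52.9% of the list with shMed1 #4 and 76.5% with shMed1 #2. Ppib, a prolyl isomerase of collagen folding, fell by 0.69 in shMed1 #4 cells and fell by 0.59 in shMed1 #2 cells on the log2 scale, and P4ha2, a collagen prolyl hydroxylase subunit, rose by 0.29 in shMed1 #4 cells and by 0.60 in shMed1 #2 cells on the log2 scale. Of 11 tested genes of collagen export and propeptide processing, 3 were higher and 2 lower with shMed1 #4, and 2 higher and 2 lower with shMed1 #2 (medians 0.044 with shMed1 #4 and 0.031 with shMed1 #2). The shares called, 45.5% with shMed1 #4 and 36.4% with shMed1 #2, lie above that of all tested genes with shMed1 #4 and below it with shMed1 #2. Pcolce2, an enhancer of procollagen C-proteinase, rose by 0.84 in shMed1 #4 cells and by 0.94 in shMed1 #2 cells on the log2 scale.

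Of 12 tested elastic fibre and fibulin genes, 2 were higher and 1 lower with shMed1 #4, and 2 higher and 6 lower with shMed1 #2. With shMed1 #4 this share, 25%, lies below 28.2% of all tested genes, and with shMed1 #2 it was 66.7%, against 43.7%. Emilin1, an elastic fibre glycoprotein gene, fell by 0.82 in shMed1 #4 cells and fell by 1.65 in shMed1 #2 cells on the log2 scale. Of 10 tested other matrix glycoproteins and proteoglycans, 1 was higher and 6 lower with shMed1 #4, and 1 higher and 7 lower with shMed1 #2. The shares called were 70% with shMed1 #4 and 80% with shMed1 #2. Ogn, a small leucine-rich proteoglycan gene, fell by 1.64 in shMed1 #4 cells and fell by 1.93 in shMed1 #2 cells on the log2 scale. Of 21 tested matrix receptors, 10 were higher and 4 lower with shMed1 #4, and 13 higher and 4 lower with shMed1 #2 (medians 0.19 with shMed1 #4 and 0.21 with shMed1 #2). That is 66.7% of the list with shMed1 #4 and 81.0% with shMed1 #2. Itgb8 had the largest mean change of the receptors and fell, at log2 fold changes of -1.26 in shMed1 #4 cells and -3.19 in shMed1 #2 cells. Itga1, the alpha 1 chain of a collagen IV and laminin receptor, rose by 0.74 in shMed1 #4 cells and by 1.22 in shMed1 #2 cells on the log2 scale, and its partner Itgb1 by 0.67 in shMed1 #4 cells and by 0.83 in shMed1 #2 cells on the log2 scale. Of 20 tested regulators of matrix genes, 5 were higher and 4 lower with shMed1 #4, and 5 higher and 7 lower with shMed1 #2. That is 45% of the list with shMed1 #4 and 60% with shMed1 #2. Smad3, a transcription factor of TGF-beta signalling, fell by 0.51 in shMed1 #4 cells and fell by 0.76 in shMed1 #2 cells on the log2 scale. Srf rose by 0.54 in shMed1 #4 cells and by 0.72 in shMed1 #2 cells on that scale.

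Exons of 9 tested members overlap a gene on the opposite strand, and no source used here gives the strand setting of the counting, so reads there cannot be told apart. For Col5a1 and Thbs1 the overlapping genes Gm13372 and Gm29233 held 8.70% as many counts as Col5a1 and 8.03% as many as Thbs1. The gene overlapping Tnc held 7.78% as many counts as Tnc, and that overlapping Fn1 held 3.98% as many as Fn1. For Col20a1 a gene on the same strand held more counts than the member.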

How the data were processed

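RNA-seq of 9 samples was used, 3 each with shMed1 #4, shMed1 #2 and NTC. The authors deposited raw counts per gene, 1 file per sample. The submitters' processing notes list the aligner STAR, the counter HTSeq and build GRCm38 (mm10) of the mouse genome, with no version, annotation release or strand setting among them. Symbols, exon lengths and positions were taken from GENCODE M21 on GRCm38, where 54587 gene identifiers were found in full and 55154 once the version was dropped. The symbols of Col25a1, Col5a1, Hspg2 and Lama2 matched only in that way.

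From the counts, genes passing filterByExpr were scaled by TMM (factors 0.982 to 1.02) and tested by the robust quasi-likelihood method of edgeR 4.0.16 in R 4.3.3, with all 9 samples and 1 coefficient per group. P-values were adjusted by Benjamini-Hochberg over all 13611 genes, and members were read from that fit. Standard errors and 95% intervals come from the same fit. The common biological coefficient of variation was 3.68%. Count differences between replicates exceeded sampling noise, at a chi-square of 1.55 to 2.53 per degree of freedom, and replicates were counted as separate samples. Counting limits cover counting error only.

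The members and lists were chosen with earlier results of these data known. Values per sample are printed for members called with a hairpin at a log2 fold change of at least 0.58 in size, for those called in opposite directions and for the highest of each class per kb in NTC, and for Lama5 and some low members beside them. At most 4 called genes of each further list are named. Members outside the rule carry values where a sentence needs them. Some genes that count among the members or markers are not reported here by name. Alternatives were other scalings (RLE, upper quartile, library size alone), other filters on low counts (none or a stricter one), other fits (DESeq2 1.42.0, the quasi-likelihood fit without its robust option, a fit of only the 2 groups in question, a replicate block) and each library left out in turn. The procedure was tried on simulated counts in which 200 genes were changed. Far more genes were called in these data, so the simulation does not cover changes as wide as those seen here. Figures were drawn with matplotlib 3.10.9.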

Additional observations from a re-analysis of the deposited data

Results flagged for a closer look

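Col12a1, Fn1 and Col18a1 were each called in opposite directions against NTC by the 2 hairpins. The difference between the hairpins comes from the same fit, by edgeR's quasi-likelihood test. Genes picked for opposite calls differ between the hairpins through that choice, so these p-values add no separate support. For Col12a1 the log2 difference of shMed1 #4 over shMed1 #2 was 1.56 (adjusted p = 8.16e-37), with every shMed1 #4 sample above NTC and every shMed1 #2 sample below it. For Col18a1 it was 0.40 (adjusted p = 2.14e-12) and for Fn1 0.32 (adjusted p = 8.23e-11), also without overlap of the groups. These are 3 of the 36 tested members, while 0.867% of all tested genes were called in opposite directions. The shMed1 #4 call was lost in 4 alternatives for Col18a1 and in 3 for Fn1, while both calls of Col12a1 held throughout.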

How the results depend on the processing

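Member counts changed by a few genes with the processing. For shMed1 #4 over NTC, library size alone gave 8 members higher and 11 lower, with 1596 of all tested genes higher and 2185 lower. The fit reported had 10 members higher and 11 lower, with 1911 of all tested genes higher and 1925 lower. Left out 1 at a time, the libraries gave 9 to 10 members higher and 9 to 11 lower for shMed1 #4 over NTC, 10 to 11 higher and 17 to 18 lower for shMed1 #2 over NTC, and 8 to 11 higher and 9 to 10 lower for shMed1 #4 over shMed1 #2. In the same fits the count of other collagens lower was 3 to 5 and of basement membrane genes lower 1 to 2 for shMed1 #4 over NTC, and that of fibrillar collagens higher was 0 to 1 for shMed1 #2 over NTC. For shMed1 #4 over shMed1 #2 the count of fibrillar collagens higher was 1 to 3, of glycoproteins and proteoglycans higher 1 to 2 and of glycoproteins and proteoglycans lower 1 to 2. The stricter filter no longer tested Lama3 and left 1 basement membrane gene lower with each hairpin. With DESeq2, 3 other collagens were lower with shMed1 #4, and the cause was not tested. Samples with the same replicate number did not deviate together (correlations from -0.041 to 0.042). With a replicate block, the member counts were 10 higher and 11 lower for shMed1 #4, 11 higher and 18 lower for shMed1 #2, and 11 higher and 9 lower between the hairpins, as without it, and 3786, 5892 and 3461 of all genes were called in those comparisons.

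The fold changes whose direction turned were called neither in the fit reported nor in any alternative. They include Col9a3, at -0.23 with shMed1 #4 and -0.22 with shMed1 #2, and Vcan, at -0.20 between the hairpins. Across the fits that left out a library, the log2 fold changes for shMed1 #4 over NTC were Col11a2 -0.31 to 0.17, Col9a3 -0.42 to 0.093, Hspg2 -0.020 to 0.087 and Col8a1 -0.022 to 0.017. For shMed1 #2 over NTC they were Fbn1 -0.22 to 0.20, Col9a3 -0.40 to 0.11, Hspg2 -0.070 to 0.037 and Lamb2 -0.041 to 0.042. For shMed1 #4 over shMed1 #2 they were Lama5 -0.011 to 0.10, Vcan -0.46 to 0.029, Col11a2 -0.41 to 0.069, Col9a3 -0.19 to 0.073 and Col16a1 -0.042 to 0.084. Lamb2 for shMed1 #2 over NTC was also -0.028 with upper quartile scaling, -0.047 with library size alone and -0.0035 with the stricter filter. Col8a1 for shMed1 #4 over NTC was 0.00070 with no filter. Col9a3 for shMed1 #4 over shMed1 #2 was 0.0020 with upper quartile scaling and 0.011 with library size alone. Genes of few counts, such as Lama3, Col1a2, Bgn and Col11a2, are the least precise. The 34 members not tested lay below the count filter. With no filter on low counts, 19 members were lower with shMed1 #2, against 18 in the fit reported. Among glycoproteins and proteoglycans 5 were lower, against 4, a count that takes in a member not tested in the fit reported.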
